A study of Oryctolagus cuniculus with 9 samples.

Results

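Syndecans are transmembrane proteins whose outer part carries heparan sulfate, a long sulfated sugar chain that binds matrix proteins and growth factors. The family has 4 genes, SDC1, SDC2, SDC3 and SDC4, and their short cytoplasmic tails bind the adaptor syntenin, encoded by SDCBP. In cultured adherent cells syndecan-4 sits in focal adhesions, where it works beside integrins as a receptor for fibronectin and recruits protein kinase C alpha. Syntenin links syndecans to endosomes and to the release of extracellular vesicles. All 5 genes were found by symbol among the 19291 genes of the deposited tables, and all 5 had enough counts to be tested, as did 12324 genes in all. SDC4 was chosen by its rise against the control at both estradiol concentrations, so those 2 changes are given as a description without a test. SDC1, SDC2, SDC3 and SDCBP were chosen by name as its relatives.

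The data are mRNA sequencing of the cultured line HA-VSMC, recorded in the labels as rabbit (Oryctolagus cuniculus), and genes without a symbol carry rabbit Ensembl identifiers. The name HA-VSMC is also used for a human aortic smooth muscle line, and the species was not checked here, which bears on every level and on genes listed at 0. There were 3 control libraries, 3 from cells given β-estradiol at 50 nM and 3 from cells given it at 250 nM. Estradiol, the main ovarian estrogen, had been dissolved in DMSO and was left on the cells for 48 h, in RPMI medium with fetal bovine serum; the protocol names only the 250 nM concentration. The labels do not say whether the controls got DMSO, mark the controls' concentration as WT, and name no separate cultures, so every p-value here measures the spread between libraries, which may be technical.

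Library totals ran from 54718407 to 72274464 count units, and the ranges of the 3 groups overlapped. Smooth muscle markers were mixed. ACTA2 was at 1173 to 1375 FPKM (fragments scaled for gene length and library size), TPM2 at 964 to 1052, MYL9 at 511 to 587 and CALD1 at 388 to 450.3. SMTN was at 24.1 to 30.6 FPKM, SYNPO2 at 6.34 to 8.11 and MYH11, the myosin of mature smooth muscle, at 4.2 to 6.4. LMOD1 was at 0.367 to 0.553 FPKM, MYOCD at 0.304 to 0.66 and DES at 0. TAGLN and CNN1 were not among the symbols used here. Of the markers chosen as defining other cells, several were near 0, with PECAM1 at no more than 0.291 FPKM, CDH5 at no more than 0.128, CDH1 at no more than 0.0123, PTPRC at no more than 0.0105, PDGFRA at no more than 0.479, and EPCAM at 0. Other members of the same lists were high: DCN, made by fibroblasts and by smooth muscle, was at 63.9 to 84 FPKM, the collagen genes COL1A1 at 1891 to 2230.3 and COL1A2 at 2655 to 3122, and LCP1, an actin bundling protein of leukocytes, at 87.4 to 98.7.

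SDC4 was the lowest of the 4 syndecans in every control library and the highest or second highest in every estradiol library. Its control levels were 48.1, 59.1 and 49.8 FPKM. At 50 nM they were 100.4, 101 and 84.7 FPKM, and at 250 nM they were 80.3, 76.2 and 89.2 FPKM. Each of the 6 estradiol libraries lay above each control, the closest pair being the second library at 250 nM and the second control. Means were 52.3 ± 5.89 FPKM in the control, 95.4 ± 9.2 at 50 nM and 81.9 ± 6.67 at 250 nM (SD, n = 3). On the CPM scale (counts scaled to library size with TMM factors, not per length) the means were 33 ± 4.03, 62.4 ± 6.59 and 53.1 ± 4.3. The fitted changes were 1.89-fold at 50 nM (log2 0.92 ± 0.10, SE) and 1.61-fold at 250 nM (log2 0.69 ± 0.10), and both used the same controls. Among all tested genes these ranked 168 from the top at 50 nM and 223 at 250 nM.

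**Figure D1:**
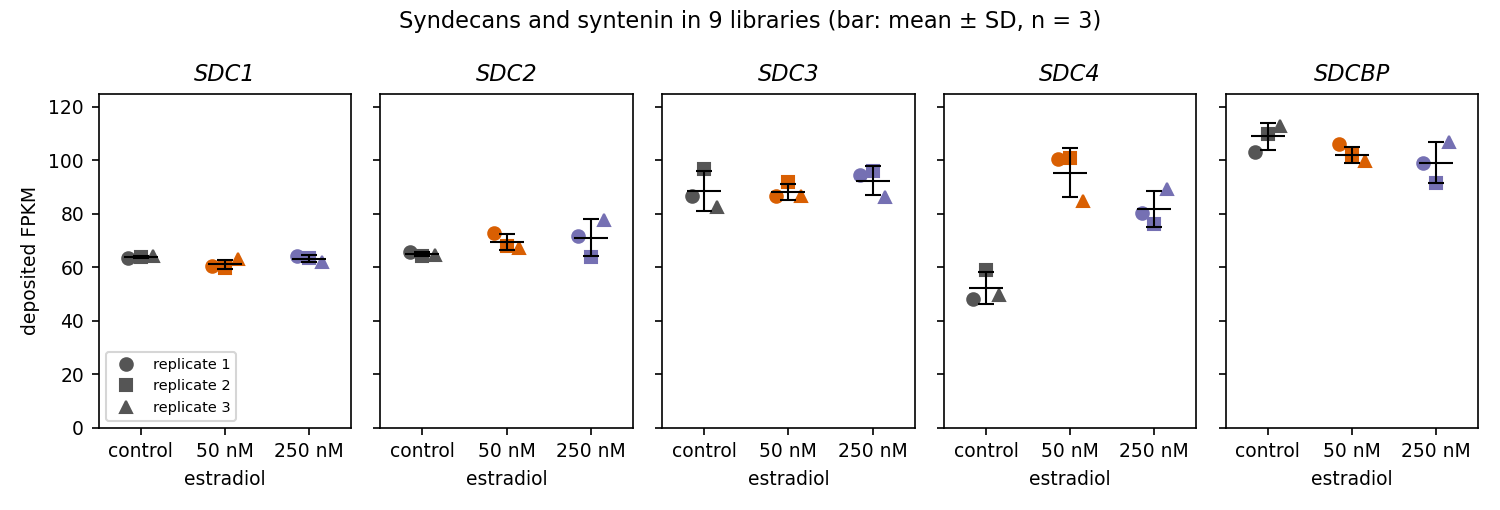
Deposited FPKM of SDC1, SDC2, SDC3, SDC4 and SDCBP (vertical axis, from 0) in the control, 50 nM and 250 nM estradiol libraries, with 1 symbol per replicate and a bar for the mean ± SD of 3 libraries. SDC4 lies at 48.1 to 59.1 in the controls and at 76.2 to 101 with estradiol, while SDC1 stays between 59.7 and 64.4 throughout.

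The rise of SDC4 in these libraries rested on 1976 to 4259 count units per library, about 494 to 1065 fragments, for which counting error alone is 4.5% to 3.06%. The spread of CPM between libraries of a group was wider, with a coefficient of variation of 12.2% in the control, 10.6% at 50 nM and 8.09% at 250 nM. Bulk RNA does not separate more transcript per cell from more cells of a kind that expresses the gene. The summed CPM of 7 fibroblast markers also lay higher with estradiol, at 23137 to 24160.4 in the control, 26242 to 27959 at 50 nM and 26686 to 27435 at 250 nM, nearly all of it from the collagen I genes COL1A1 and COL1A2. Of these 7 markers 2 passed at 50 nM and 1, COL1A1, at 250 nM in edgeR, all higher, against 3.25% and 0.308% of all genes. The 5 markers other than the collagen I genes did not pass. Their log2 changes lay between -0.03 (PDGFRA) and 0.18 (FAP) at 50 nM and between -0.03 (LUM) and 0.10 (FAP) at 250 nM. COL1A1 kept its call in 9 of 18 alternatives at 50 nM and in 6 of 18 at 250 nM, with adjusted p-values of up to 0.397 and 0.455. Its part in the level of SDC4 was not tested. The sums of 9 leukocyte markers overlapped between the groups, at 194 to 207, 194 to 221 and 196 to 214 CPM, and came almost wholly from LCP1.

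The step between the concentrations was not itself a contrast that chose SDC4. It uses the same estradiol libraries, however, so its p-value is not wholly free of that choice. SDC4 was lower at 250 nM than at 50 nM by a fitted 0.851-fold (log2 -0.23 ± 0.09, unadjusted 95% interval -0.43 to -0.03), and it did not pass over all genes (edgeR quasi-likelihood test, unadjusted p = 0.0266, adjusted p = 0.727). The third library at 250 nM, with 57.9 CPM, lay above the third library at 50 nM, with 54.8 CPM, so the groups overlapped. In this contrast 0.325% of all genes passed and 11.5% had groups that did not overlap. As a fold the interval runs from 0.74 to 0.979, and the adjusted p leaves neither a larger response at the lower concentration nor an equal one shown.

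SDC1, the syndecan typical of epithelia and plasma cells, had the steadiest level of the 5 genes. Its CPM values were 60.4, 61.6 and 61 in the control, 59.7, 59.8 and 61.9 at 50 nM, and 62.7, 62.7 and 60.8 at 250 nM. In CPM the groups overlapped, and over all 9 libraries the coefficient of variation was 1.84%, against 27.7% for SDC4. The fitted change was log2 -0.01 ± 0.05 at 50 nM (95% interval -0.13 to 0.10, edgeR adjusted p = 0.953) and 0.02 ± 0.05 at 250 nM (-0.09 to 0.14, edgeR adjusted p = 0.96). On the FPKM scale the value at 250 nM had the other sign, -0.01. At 50 nM the FPKM values (60.5, 59.7 and 63.2) all lay below the controls (63.6, 63.9 and 64.2). The change there was -0.06 on log2(FPKM + 1) and did not pass (limma adjusted p = 0.46).

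SDC2, the syndecan typical of fibroblasts and other mesenchymal cells, was the relative with the largest positive values. It had 107, 106 and 106 CPM in the control, 124, 117 and 113 at 50 nM, and 119.8, 108 and 131 at 250 nM. On this scale all 6 estradiol libraries lay above the controls, as they did for SDC4, although by little. The fitted change was 1.11-fold at 50 nM (log2 0.15 ± 0.07, 95% interval 0.01 to 0.29, edgeR unadjusted p = 0.0406, adjusted p = 0.287). At 250 nM it was 1.13-fold (log2 0.17 ± 0.07, 0.03 to 0.32, edgeR unadjusted p = 0.0207, adjusted p = 0.438). Neither passed over all genes, and the value at 250 nM was 0.10 without 250 nM replicate 3. On the FPKM scale the second library at 250 nM, with 63.9, fell below the lowest control, with 64.2.

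SDC3, best known from neurons and skeletal muscle precursors, was the most abundant syndecan in every control, at 86.6, 96.9 and 82.4 FPKM. It had 86.7, 91.8 and 86.5 FPKM at 50 nM and 94.7, 96.2 and 86.2 FPKM at 250 nM, and the 3 groups overlapped. Its CPM changed by log2 0.05 ± 0.07 at 50 nM (95% interval -0.10 to 0.20, edgeR adjusted p = 0.841), a value that turned to -0.0025 on the log2 FPKM scale and to -0.01 without the third control. At 250 nM it was 0.10 ± 0.07 (-0.05 to 0.25, edgeR adjusted p = 0.793).

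SDCBP, the syntenin gene, had 103, 109.8 and 113 FPKM in the control, 106, 102 and 99.7 at 50 nM and 99.2, 91.6 and 107 at 250 nM. These groups overlapped as well. The fitted change was log2 -0.04 ± 0.06 at 50 nM (95% interval -0.17 to 0.10, edgeR adjusted p = 0.871) and -0.09 ± 0.06 at 250 nM (-0.23 to 0.04, edgeR adjusted p = 0.773).

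Of the 4 relatives, 0 passed over all genes at either concentration, and 0 passed in any of 18 alternative settings, DESeq2 and limma-voom among them. Over all genes 3.25% passed at 50 nM and 0.308% at 250 nM (edgeR adjusted p under 0.05). The genes passing at 50 nM were 191 higher and 210 lower on the counts, and 85 higher and 223 lower on log2(FPKM + 1). SDC2 was the relative with an unadjusted p under 0.05, at both concentrations. Groups did not overlap in CPM for SDC4 and SDC2 at both concentrations, against 19.0% of all genes at 50 nM and 15.5% at 250 nM. The upper ends of the relatives' unadjusted 95% intervals at 50 nM were 1.07-fold for SDC1, 1.23-fold for SDC2, 1.15-fold for SDC3 and 1.07-fold for SDCBP. At 250 nM they were 1.1-fold, 1.24-fold, 1.19-fold and 1.03-fold in the same order. Each lies below the fitted change of SDC4 at that concentration. That SDC4 differs from them by more than its choice would give was not tested.

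**Figure D2:**
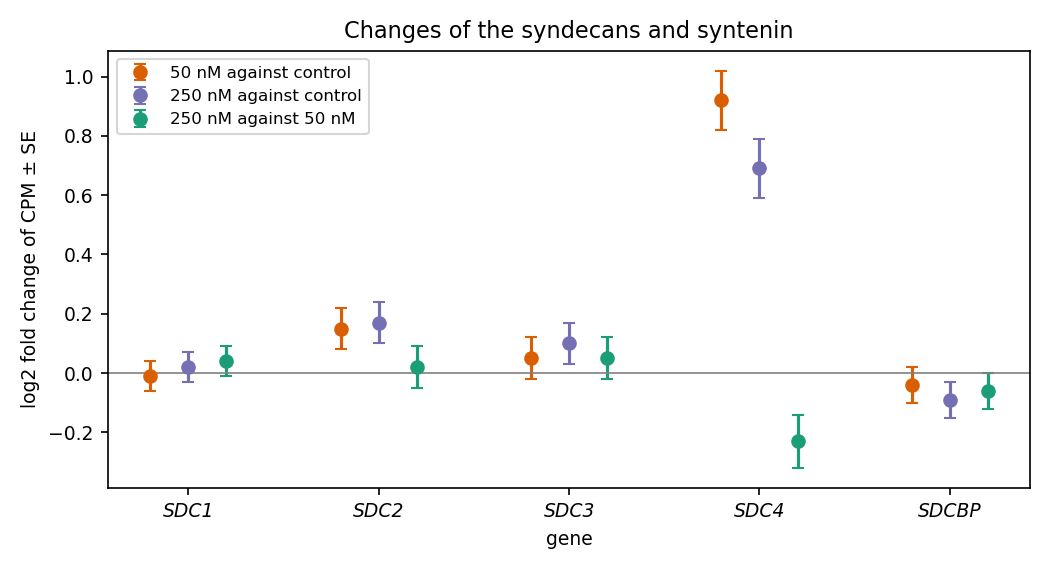
Fitted log2 fold change of CPM with its standard error (vertical axis) for the 5 genes in 50 nM against control, 250 nM against control and 250 nM against 50 nM. The SDC4 values of 0.92 and 0.69 were the reason for its choice; the 4 relatives lie between -0.09 and 0.17 in the 2 comparisons with the control.

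Per length, the summed level of the 4 syndecans was 269.8 ± 12.4 FPKM in the control, 314 ± 10.9 at 50 nM and 309 ± 7.97 at 250 nM (SD, n = 3). Without SDC4 the sums were 217 ± 6.92, 219 ± 1.69 and 227 ± 3.68 FPKM. SDC4 held 18.2%, 20.8% and 19.1% of the syndecan sum in the controls. It held 31.3%, 31.5% and 28.1% at 50 nM and 25.8%, 25.4% and 28.3% at 250 nM. Its mean share thus went from 19.4% ± 1.31 to 30.3% ± 1.92 and 26.5% ± 1.57, as a description of the gene chosen for its rise.

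The order of the 4 levels differed between control and estradiol libraries. In all 3 controls it was SDC3, SDC2, SDC1 and SDC4, from high to low. SDC4 came first in the first 2 libraries at 50 nM and in the third at 250 nM, and second behind SDC3 in the other 3 estradiol libraries, with SDC2 and then SDC1 below both in all 6. The ranges of neighbours in this order overlapped for SDC3 and SDC4 at both concentrations, and for SDC2 and SDC4 at 250 nM, where the highest SDC2 value (77.8 FPKM) passed the lowest SDC4 value (76.2 FPKM). SDC1 (61.9 to 64.4 FPKM) and SDC2 (63.9 to 77.8 FPKM) also overlapped at 250 nM. In the controls SDC1 (63.6 to 64.2 FPKM) and SDC2 (64.2 to 65.7 FPKM) differed by little. The ratio of SDC4 to SDC1, the steadiest relative, was 0.819 ± 0.092 in the control, 1.56 ± 0.194 at 50 nM and 1.3 ± 0.128 at 250 nM. The somewhat lower FPKM of SDC1 at 50 nM adds to the ratio there.

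**Figure D3:**
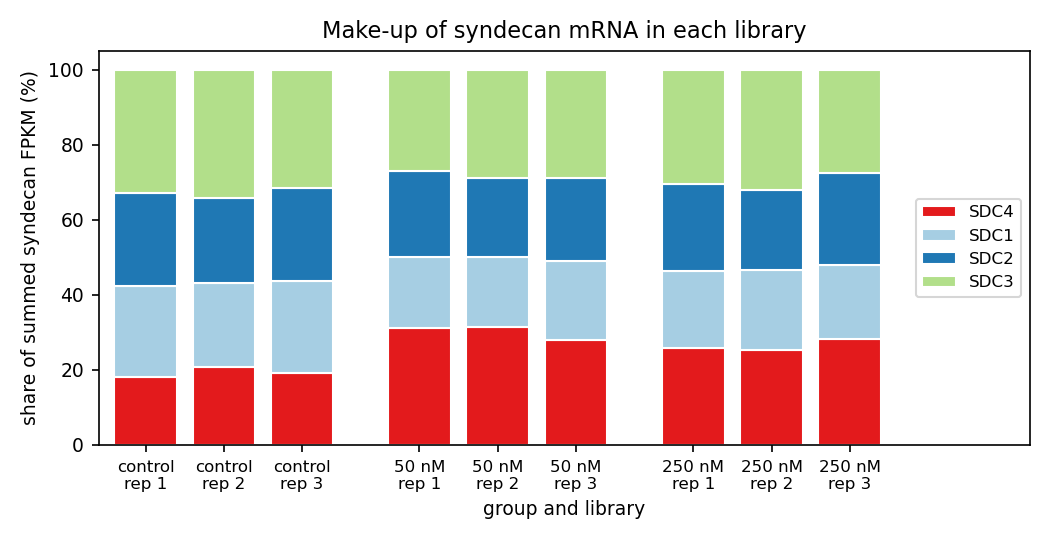
Share of each syndecan in the summed FPKM of SDC1, SDC2, SDC3 and SDC4 (vertical axis, percent) in each of the 9 libraries. The lowest segment, SDC4, spans 18.2% to 20.8% in the controls, 28.1% to 31.5% at 50 nM and 25.4% to 28.3% at 250 nM.

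Syndecans bind many of their ligands through heparan sulfate, so the genes that make, cut and read it were counted too. The deposited tables held 10 of 15 other proteoglycans, 24 of 34 chain synthesis genes and 9 of 12 remodelling and breakdown genes. They held 11 of 11 shedding proteases and inhibitor, 20 of 23 cytoplasmic partners and 18 of 22 ligands and co-receptors. Some of these had too few counts to be tested, so the counts below do not cover the whole system. Over all 12324 genes, 1924 had an unadjusted p under 0.05 at 50 nM and 1069 at 250 nM, the background for the lists' unadjusted counts. Of 9 other heparan sulfate proteoglycans tested, which include glypicans, perlecan (HSPG2) and CD44, 0 passed at 50 nM (edgeR, 4 at an unadjusted p under 0.05; DESeq2 called 2 and limma-voom 0), and 3 passed without 50 nM replicate 3. At 250 nM 0 passed (3 unadjusted; DESeq2 0, limma-voom 0). Their median log2 change was 0.18 and 0.15, against -0.002 and -0.0047 over all genes.

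Of 20 enzymes and transporters of chain synthesis, from the chain starter XYLT2 to the polymerase pair EXT1 and EXT2 and the sulfotransferases, 0 passed at 50 nM (5 unadjusted; DESeq2 1, limma-voom 0) and 0 at 250 nM (1 unadjusted; DESeq2 0, limma-voom 0). Without 50 nM replicate 2, or without replicate 3, 1 passed at 50 nM. Their median was 0.03 at both concentrations. Of 6 genes that edit or break down the chains, such as the sulfatases SULF1 and SULF2, 0 passed at either concentration, also at an unadjusted p under 0.05 and in DESeq2 and limma-voom, and their values lay between -0.04 and 0.10. Of 11 genes, proteases that can shed syndecan outer parts and their inhibitor TIMP3, 0 passed at 50 nM (3 unadjusted; DESeq2 1, limma-voom 0) and 0 at 250 nM (2 unadjusted; DESeq2 0, limma-voom 0). Without 50 nM replicate 3, 2 passed at 50 nM.

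Among 20 partners of the cytoplasmic tail and of syntenin traffic, 1 rose at 50 nM (4 unadjusted; DESeq2 called 2, limma-voom 1) and 0 passed at 250 nM (3 unadjusted; DESeq2 0, limma-voom 0). It was PLD2, a phospholipase D that acts with ARF6 and syntenin in vesicle budding. Over all genes 3.25% passed at 50 nM and 0.308% at 250 nM, so 1 of 20 at 50 nM is near the share over all genes. PLD2 had 111, 106 and 101 CPM in the control, 115, 145 and 129.6 at 50 nM, and 118, 122 and 116 at 250 nM. All estradiol libraries lay above the controls, the first at 50 nM by little. Over all genes, groups did not overlap for 19.0% at 50 nM and 15.5% at 250 nM. The change of PLD2 was log2 0.30 ± 0.07 at 50 nM (edgeR adjusted p = 0.0384) and 0.16 ± 0.07 at 250 nM (edgeR adjusted p = 0.562). The call at 50 nM was lost without control replicate 2 (edgeR adjusted p = 0.0777) or 3 (0.183) or 50 nM replicate 2 (0.172) or 3 (0.05), with only the 2 groups fitted (0.0978) and on the log2 FPKM scale (limma adjusted p = 0.137 to 0.176). PRKCA, which encodes the protein kinase C alpha that syndecan-4 binds, had a value of 0.08 ± 0.09 at 50 nM (edgeR adjusted p = 0.796).

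Among 15 ligands and co-receptors tested, 2 rose and 0 fell at each concentration, HBEGF and THBS1, with a median of 0.13 at 50 nM and 0.08 at 250 nM. At 50 nM 8 had an unadjusted p under 0.05, DESeq2 called 4, limma-voom 2, edgeR with no filter 4 and edgeR without 50 nM replicate 3 called 5. At 250 nM 6 had one, DESeq2 called 2 and limma-voom 1. HBEGF, a heparin-binding ligand of the EGF receptor, had 17.4, 20.5 and 19.8 CPM in the control, 36.5, 28.8 and 32.2 at 50 nM and 25.1, 26.9 and 29.1 at 250 nM. THBS1, which encodes the matrix protein thrombospondin 1, had 1438, 1535 and 1572 CPM in the control, 2298, 2228 and 1917 at 50 nM and 1859.9, 1939.8 and 1891 at 250 nM. For both genes every estradiol library exceeded every control. Over all genes 3.25% passed at 50 nM and 0.308% at 250 nM, and groups did not overlap for 19.0% and 15.5%. The log2 changes at 50 nM were 0.76 ± 0.10 for HBEGF (edgeR adjusted p = 0.000349) and 0.50 ± 0.06 for THBS1 (edgeR adjusted p = 0.000325), and at 250 nM 0.49 ± 0.10 and 0.32 ± 0.06. Both kept the call at 50 nM in all 18 alternatives. At 250 nM (edgeR adjusted p = 0.0393 for each) both lost it when any 1 of the 6 libraries was left out, with edgeR adjusted p-values of 0.0558 to 0.26 for HBEGF and 0.0845 to 0.226 for THBS1. Both also lost it on the log2 FPKM scale, and HBEGF in limma-voom (adjusted p = 0.0524). FN1, the fibronectin gene, had 0.20 ± 0.06 at 50 nM (edgeR adjusted p = 0.079) and 0.15 ± 0.06 at 250 nM (edgeR adjusted p = 0.448), and did not pass.

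**Figure D4:**
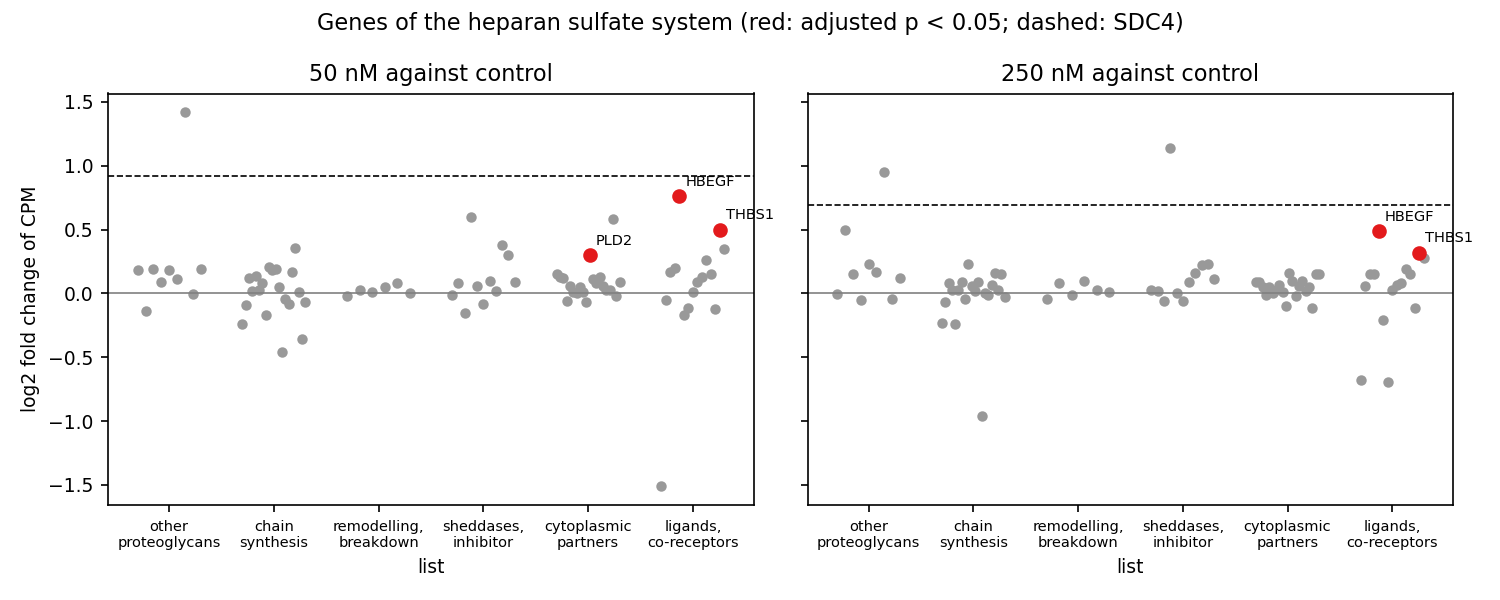
Log2 fold change of CPM (vertical axis) of every tested gene in 6 lists around heparan sulfate, at 50 nM (left) and 250 nM (right) against control; red points passed over all genes and the dashed line marks SDC4. PLD2, HBEGF and THBS1 are the points in red at 50 nM, HBEGF and THBS1 at 250 nM.

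To place the pattern of SDC4, its log2 CPM was set against 7594 genes with a symbol and a mean of at least 5 CPM over the 9 libraries. The 5 with the highest Pearson r were NEDD9 (0.990), TSPAN14 (0.975), CEMIP2 (0.966), NUCB1 (0.960) and TSC22D2 (0.957), and 61 genes reached 0.9. These values describe 9 libraries that differ in treatment and depth, so r includes the difference between the groups. The r values are no test, and the changes of the 5 genes are a description too, since their pattern chose them. NEDD9 encodes a docking protein of focal adhesions, TSPAN14 a tetraspanin that accompanies the protease ADAM10, and CEMIP2 a cell-surface protein of hyaluronan turnover. The measure ignores size: NUCB1 went only from 199.7 ± 5.18 CPM in the control to 213 ± 1.95 at 50 nM and 211 ± 0.593 at 250 nM.

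NEDD9 had 178, 204 and 182 CPM in the control, 299, 303 and 256 at 50 nM, and 234, 248 and 265 at 250 nM. In each group its highest library was the one where SDC4 was highest: the second control, the second at 50 nM and the third at 250 nM. After the group means were subtracted, r between the genes was 0.938 over the 9 libraries, against 0.859 for TSPAN14, 0.776 for NUCB1, 0.701 for CEMIP2 and 0.462 for TSC22D2. These 5 genes were chosen by r over the same libraries, so the shared peaks and these values are in part given by that choice. Over the 9 libraries the relatives had an r to SDC4 of 0.764 for SDC2, 0.417 for SDC3, -0.122 for SDCBP and -0.146 for SDC1. For SDC1 this depended on the scale, since log2 FPKM gave -0.731. After the group means were subtracted, r was 0.700 for SDCBP, 0.564 for SDC2, 0.401 for SDC3 and -0.462 for SDC1, so that SDCBP and SDC2 lay within the range of the 5 genes on that measure.

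**Figure D5:**
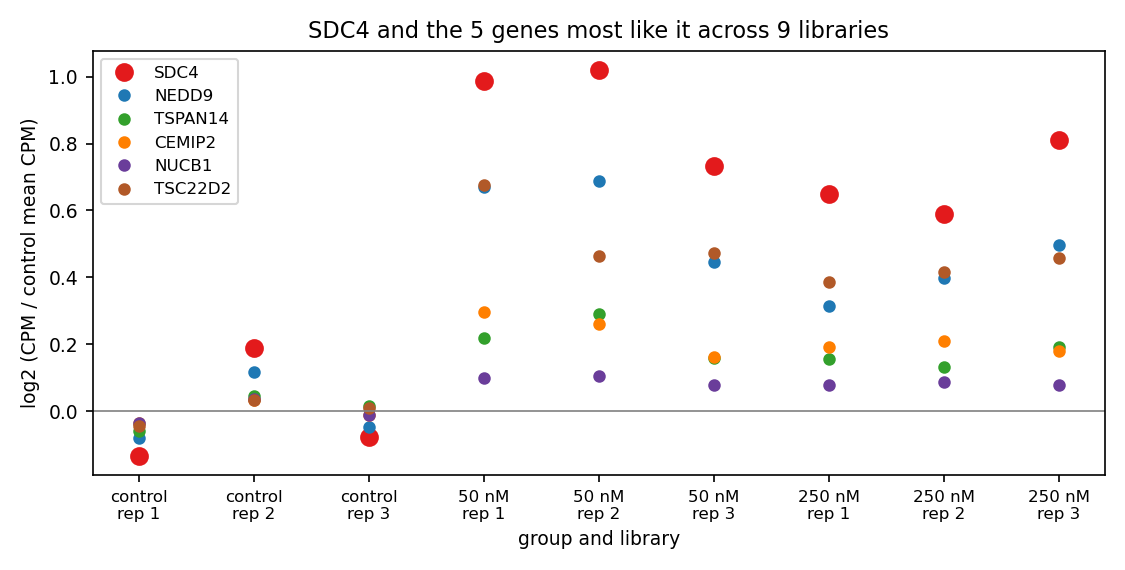
Log2 of CPM over the control mean (vertical axis) for SDC4 and the 5 genes with the highest r to it, in each of the 9 libraries. SDC4 has the widest range, NUCB1 the narrowest, and NEDD9 peaks in the same library as SDC4 in each group.

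All 5 genes matched a RefSeq gene of the assembly mOryCun1.1, from which only names and gene order were taken. The 4 syndecans lay on different chromosomes, and each had a gene of the matrilin family, which encodes cartilage matrix proteins, close by. A single protein-coding gene lay between SDC1 and MATN3, between SDC3 and MATN1, and between SDC4 and MATN4, and 4 lay between SDC2 and MATN2. The matrilin genes were almost silent here, with a highest value of 0.389 FPKM, that of MATN2. SYS1, the next gene to SDC4 on the other side, had a log2 change of 0.17 ± 0.09 at 50 nM (edgeR adjusted p = 0.379) and 0.14 ± 0.09 at 250 nM (edgeR adjusted p = 0.735), and DBNDD2 beyond it -0.02 ± 0.10 and -0.01 ± 0.10. MATN4, at no more than 0.184 FPKM, had 1.19 ± 0.56 (edgeR adjusted p = 0.323) and 0.89 ± 0.56 (edgeR adjusted p = 0.731), and RBPJL, which lies between it and SDC4, had too few counts to be tested.

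Of 20 protein-coding neighbours, 2 on each side of the 5 genes, 14 were tested. At 50 nM 0 passed (edgeR; 1 at an unadjusted p under 0.05, DESeq2 1, limma-voom 0), and at 250 nM 0 passed (0 unadjusted, DESeq2 0, limma-voom 0). With 3.25% and 0.308% of all genes passing in edgeR, 0 of 14 is near the share over all genes. In that table a long noncoding RNA model overlaps SDC4 and none overlaps the other 4 genes. Whether the authors' annotation holds it is unknown, and no source states that strand was used in counting.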

How the data were processed

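mRNA was measured in 9 libraries, and groups were taken from the sample titles. For each gene, the authors deposited an estimated count and an FPKM value in every library. Trim Galore, TopHat2 2.1.1, Cufflinks and Cuffdiff are named in the submitters' processing notes; genome build, annotation and use of strand were not given in the sources used here. These counts are whole numbers whose low values pile up at 4 (2440 values, against 880 at 3), so about 4 units were taken as 1 fragment. Table columns were matched to samples by group and number.

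Genes were kept by filterByExpr (minimum count 10), and all 12324 were fitted together in edgeR 4.0.16 (R 4.3.3) over the 9 libraries, using TMM factors and the quasi-likelihood test, with Benjamini-Hochberg adjustment within each comparison. CPM was computed from the deposited counts; likeness used log2 CPM with a prior count of 2. FPKM, as deposited, served to compare levels between genes. Alternatives were DESeq2 1.42.0, limma-voom (limma 3.58.1), other factors and filters, counts divided by 4, a replicate block, limma on log2(FPKM + 1) and log2(FPKM + 0.1), and leaving out each library. Libraries of the same group differed by more than sampling noise (chi-square over degrees of freedom 2.91 to 10.6), so none was merged. The code was checked on simulated counts.

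The genes, the lists and the tests were chosen with earlier results of these data known. Besides the 5 genes, those named include list genes that passed against the control (at most 4 per list and comparison) and the 5 most like SDC4. Defining cell markers, the other smooth muscle markers and neighbours in the genome are also named. PRKCA, FN1, LCP1, the collagen I genes and HAS2 were chosen after their values were seen. Of the lists, 10 of 12 smooth muscle, 10 of 10 endothelial, 7 of 10 epithelial, 9 of 10 leukocyte and 7 of 8 fibroblast markers were in the table. The smooth muscle sums were 6225 to 6771 CPM over the 9 libraries, the epithelial sums 0.549 to 1.32 CPM and the endothelial sums 1.52 to 3.32 CPM.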

Additional observations from a re-analysis of the deposited data

How the results depend on the processing

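The fitted change of SDC4 stayed between 0.85 and 1.02 at 50 nM and between 0.62 and 0.79 at 250 nM over 18 alternatives each. Against 50 nM, SDC4 at 250 nM stayed between -0.32 and -0.18 and never passed, with adjusted p-values of 0.275 to 1. On log2(FPKM + 1), with or without a filter, and on log2(FPKM + 0.1), SDC3 at 50 nM was -0.0025 and SDC1 at 250 nM -0.01, both of the other sign than in the counts. Leaving out a library gave -0.01 to 0.12 for SDC3 at 50 nM and -0.05 to 0.09 for SDC2 between the concentrations.

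The number of genes passing at 50 nM was 401, against 699 with DESeq2, 244 with only the 2 groups compared, 234 on unfiltered log2(FPKM + 1) and 187 (without control replicate 3) to 564 without 1 library. It fell to 255 without control replicate 2 and to 213 and 211 without 50 nM replicates 1 and 2. At 250 nM it was 38, against 139 with DESeq2, 4 in each FPKM setting and 5 (without 250 nM replicate 3) to 25 without 1 library, with 21, 25 and 15 without control replicates 1, 2 and 3 and 25 and 13 without 250 nM replicates 1 and 2. Between the concentrations it was 40, against 98 with DESeq2, 23 on log2(FPKM + 1), 26 on log2(FPKM + 0.1), 11 unfiltered and 21 to 50 without 1 library (23 and 21 without 250 nM replicates 1 and 2). The genes higher and lower there were 23 and 17 on the counts and 18 and 8 on log2(FPKM + 0.1). The cause was not tested.

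By CPM, which is not per length, the share of SDC4 was 10.6% in the control, 17.5% at 50 nM and 15% at 250 nM. By Spearman's rho 2 of the 5 genes most like SDC4 stayed, and by log2 FPKM 4 did. Same-numbered libraries of different groups had an r of their deviations of -0.032 to 0.036, against -0.079 to 0.068 for different numbers. Such values cannot exclude a pairing that touches only some genes. The replicate block changed no call of the 5 genes (SDC4 at 250 nM against 50 nM, adjusted p = 0.687) and gave 492, 43 and 42 genes passing in the 3 comparisons; it added 1 call among the proteoglycans at each concentration and 1 in chain synthesis at 50 nM. Counting error limits SDC4 to about 4.5% at the lowest depth.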

Other observations

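HAS2, the main hyaluronan synthase of mesenchymal cells, makes another long sugar chain of the cell surface. It had 251, 255 and 292 CPM in the control, 333, 331 and 311 at 50 nM, and 339.8, 340.4 and 331 at 250 nM, so that every estradiol library exceeded every control. By comparison, groups did not overlap for 19.0% of all genes at 50 nM and 15.5% at 250 nM, and 3.25% and 0.308% passed in edgeR. The log2 change of HAS2 was 0.29 ± 0.06 at 50 nM (edgeR adjusted p = 0.0166) and 0.34 ± 0.06 at 250 nM (edgeR adjusted p = 0.0245). Each call held in 10 of 18 alternatives, with adjusted p-values of up to 0.101 and 0.182. At 50 nM the call was lost without control replicate 1 (0.0579) or 2 (0.0572) and without 50 nM replicate 1 (0.0792) or 2 (0.0604). At 250 nM it was lost without control replicate 1 (0.113) or 2 (0.0907) and without 250 nM replicate 1 (0.106), 2 (0.15) or 3 (0.118). HAS2 was chosen after its values were seen, so its p-values are a description and not a test free of that choice.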
